A study of Mus musculus with 3 samples.

Results

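The Tdpoz gene cluster is a stretch of mouse chromosome 3, chr3:93400001-93900000 in the mm9 assembly. It was taken as all 500 windows of 1 kb in that stretch, of 2725730 whole 1 kb windows of nuclear sequence. Every window of the stretch was taken, whatever its value. The cluster and its limits were, however, chosen with earlier results of these data known. RNA came from 2-cell mouse embryos collected at E1.5, in 1 group of 3 litters with 1 library each. The mothers were of mixed strain, LSD1 FL/FL (both alleles of a histone demethylase gene floxed) and ZP3::Cre negative (without the Cre transgene driven by an oocyte promoter), so all litters carried the floxed maternal allele and none came from a Cre-bearing mother. The labels give the fathers as wild type CB6 in one field and as C57/Bl6J in another. Litters were lysed directly after collection and the RNA was amplified with SPIA, an isothermal method, before sequencing. The age of the mothers is not given in the sources used here, and no second condition enters any comparison.

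Tdpoz genes encode proteins that join a TRAF domain, also called MATH, to a POZ domain, also called BTB. They resemble SPOP, which brings target proteins to the cullin 3 ubiquitin ligase. In the mouse the 2-cell stage is when the embryo's own genome is first transcribed at a high level while maternal RNA is degraded. Where neighbouring genes are near-identical copies, a short read can fit several of them.

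An annotation of mm9 was not used here, so the label could not be checked against the positions of Tdpoz1, Tdpoz3 and Tdpoz4, and no covered stretch below is assigned to a gene. RefSeq on the later GRCm38.p6 assembly lists 8 Tdpoz genes on chromosome 3. There, 16 genes run from Tdpoz2 through Tdpoz1, Tdpoz4, Tdpoz3, Tdpoz5 and Tdpoz9 to Tdpoz7. Of these, 7 are named Tdpoz and 9 are pseudogenes, while Tdpoz8 stands apart with 20 genes between it and Tdpoz2.

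The deposited coverage was made of alignments 72 bases long. To show what such an alignment can tell apart, the same 72 coding bases are printed for the 8 genes, from GENCODE M21 transcripts of GRCm38, 5′ to 3′. Capitals mark the 23 positions at which the 8 genes are not all alike. This is the stretch of that length at which the most pairs of genes are identical. It covers coding bases 484 to 555 of each gene except Tdpoz8, where it covers bases 106 to 177.
Tdpoz1: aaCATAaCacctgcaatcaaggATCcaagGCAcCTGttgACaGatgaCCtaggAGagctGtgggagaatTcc
Tdpoz9: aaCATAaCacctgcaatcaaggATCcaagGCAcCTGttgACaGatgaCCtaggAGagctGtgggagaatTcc
Tdpoz5: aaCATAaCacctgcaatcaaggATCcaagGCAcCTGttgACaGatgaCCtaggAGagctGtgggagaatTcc
Tdpoz7: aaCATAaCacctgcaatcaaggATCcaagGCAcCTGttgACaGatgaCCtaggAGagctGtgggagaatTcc
Tdpoz2: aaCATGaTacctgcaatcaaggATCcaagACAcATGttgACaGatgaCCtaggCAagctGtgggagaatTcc
Tdpoz3: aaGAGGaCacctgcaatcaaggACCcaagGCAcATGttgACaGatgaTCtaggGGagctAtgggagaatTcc
Tdpoz4: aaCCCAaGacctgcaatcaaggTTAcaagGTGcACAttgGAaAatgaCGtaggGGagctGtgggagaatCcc
Tdpoz8: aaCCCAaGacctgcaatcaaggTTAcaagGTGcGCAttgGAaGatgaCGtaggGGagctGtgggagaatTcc
Tdpoz1, Tdpoz9, Tdpoz5 and Tdpoz7 read alike over all 72 bases, which makes 6 identical pairs. This likeness is local. Of the 2251 runs of 72 bases in the Tdpoz1 transcript, only 3 also occurred in Tdpoz5, and 3 in Tdpoz7. Tdpoz9 likewise shared 3 of its 2254 with each. The nearest gene differs by 6 bases for Tdpoz2, by 8 for Tdpoz3 and by 3 for both Tdpoz4 and Tdpoz8.

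Over whole coding sequences the 28 gene pairs had a median identity of 83.3%, with a lowest value of 76.4%. Tdpoz5 and Tdpoz7 were identical at all 1020 aligned coding bases. Tdpoz1 and Tdpoz9 were identical at 1078 of 1095 bases, or 98.4%. Tdpoz4 and Tdpoz8 followed at 93.99%. Exact sharing of 72-base words was far less even. All 952 words of the Tdpoz5 transcript occurred in Tdpoz7, and 673 of the 2251 words of Tdpoz1 occurred in Tdpoz9. Tdpoz2 shared none of its 1074 words with another Tdpoz gene, and Tdpoz3 shared 4 of 1027, all with Tdpoz1. Words were also shared with neighbours that carry other names. Of the words of Tdpoz9, 86.6% occurred in such a gene, against 55.5% for Tdpoz3 and 34.6% for Tdpoz2. Words found in no other gene made up 99.1% for Tdpoz8, 78.0% for Tdpoz4, 66.4% for Tdpoz1, 65.4% for Tdpoz2, 44.5% for Tdpoz3, 13.4% for Tdpoz9 and 0% for Tdpoz5 and Tdpoz7.

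The likeness of Tdpoz1 and Tdpoz9 reaches past the transcript. Their promoters are printed because the 2 genes differ little in sequence and alignments to one can count at the other. They are the 250 bases before the RefSeq start in GRCm38.p6, chr3:93676284-93676533 for Tdpoz1 and chr3:94054886-94055135 for Tdpoz9, on the minus strand for both. These positions belong to the later assembly and cannot be set beside the mm9 positions given for windows and blocks. The capitals mark the letters TATATAA.
Tdpoz1: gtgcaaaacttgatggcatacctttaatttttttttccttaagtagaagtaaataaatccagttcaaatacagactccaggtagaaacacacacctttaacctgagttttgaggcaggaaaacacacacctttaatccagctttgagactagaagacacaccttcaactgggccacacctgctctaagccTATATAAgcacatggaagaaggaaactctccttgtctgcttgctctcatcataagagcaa
Tdpoz9: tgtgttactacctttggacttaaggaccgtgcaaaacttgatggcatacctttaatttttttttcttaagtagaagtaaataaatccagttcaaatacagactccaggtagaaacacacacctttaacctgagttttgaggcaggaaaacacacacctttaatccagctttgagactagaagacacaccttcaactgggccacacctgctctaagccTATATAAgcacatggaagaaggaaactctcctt
All 222 bases that were aligned between the 2 windows were identical. Bases opposite a gap were not counted, among them a c of Tdpoz1, after its run of t, that Tdpoz9 lacks. The letters begin 60 bases before the annotated start in Tdpoz1 and 33 before it in Tdpoz9. Counting both strands (TTATATA on the other), TATATAA was present in 3 of 7 windows of Tdpoz genes (1 each of Tdpoz1, Tdpoz8 and Tdpoz9), and in 3.04% of all 32851 promoter windows of the same length. TATAAA, which overlaps TATATAA where that is followed by a further A, was present in 0 of 7 and in 12.4% of all, again on both strands. The 3 windows with TATATAA are alike, with 87.2% identity between Tdpoz8 and Tdpoz1 and 85.6% between Tdpoz8 and Tdpoz9 over aligned bases. They are therefore not separate observations. Whether RNA begins at each annotated start, in windows with or without the letters, was not tested. A match is a description of these letters only.

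RNA from the cluster was present in all 3 litters at a level above that of the rest of its chromosome. Maternal and embryonic RNA cannot be told apart in these files. Alignments in it numbered 33670, 49117 and 30330 in litters 1 to 3. In RPKM, here the alignments on 1 kb for every 1000000 on nuclear chromosomes, the level was 1.98, 3.03 and 1.499, against 0.226, 0.234 and 0.245 over the rest of chromosome 3. Litter 2 was the highest and litter 3 the lowest, and every litter's cluster lay above every litter's remainder. The cluster exceeded the remainder by 9.28 ± 3.45 fold (SD, n = 3), with 8.74, 13.0 and 6.12 fold in litters 1 to 3. The log2 ratio was 3.15 ± 0.54, higher in 3 of 3 litters, and flipping the signs of the litters in an exact permutation test, two-sided, returned p = 0.25, the smallest value possible with 3 litters, so the test could not have passed a threshold of 0.05. The test returns this value for any 3 log2 ratios of the same sign, whatever their spread. The fold was 2.23 when only windows with at least 1 alignment were compared, and 3.10 on a mean of log2 values with a pseudocount of 0.1. Of the other windows of the chromosome, 82.2% held no alignment in any litter, against 26% in the cluster. In bulk samples, more cells with the RNA and more RNA per cell cannot be told apart.

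The cluster took 0.0990% of nuclear alignments in litter 1 (95% Wilson interval 0.0979% to 0.10005%), 0.151% in litter 2 (0.150% to 0.153%) and 0.0749% in litter 3 (0.0741% to 0.0758%). The intervals do not overlap, but they cover counting error only, since molecules copied by the amplification can be read more than once and were not tagged. Nuclear alignments numbered 34014013, 32431630 and 40474940. When chromosome 3 was divided into 318 intervals of 500 kb in step with the cluster, the cluster ranked 2 by mean level, and 2, 1 and 8 in litters 1 to 3. The median interval stood at 0.0909 RPKM and the highest at 2.96.

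The signal began inside the cluster on one side and ran past it on the other. The 100 kb before the cluster had 0.0570, 0.101 and 0.0539 RPKM in litters 1 to 3. The 5 successive pieces of 100 kb in the cluster averaged 2.91 ± 0.913, 2.10 ± 0.572, 0.872 ± 0.148, 2.59 ± 1.18 and 2.38 ± 1.18 RPKM (SD, n = 3). The middle piece was the lowest in each litter. The 100 kb after the cluster still held 1.83 ± 1.11, and the piece that begins 300 kb after it held 0.327 ± 0.0975.

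Of the 500 windows, 76 reached 1 RPKM in all 3 litters, which is 15.2%. The share was 0.92% of 159099 windows elsewhere on chromosome 3 and 1.19% of all nuclear windows. A further 28 windows reached it in 2 litters and 74 in 1 litter, and 322 did not reach it in any. This level equals 34.01, 32.4 and 40.5 alignments per window in litters 1 to 3, and the 3 alignments that a count of 0 allows equal 0.0882, 0.0925 and 0.0741 RPKM. The 76 windows held 83.1% of the cluster's alignments, and the 10 highest windows held 32.2%.

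**Figure D1:**
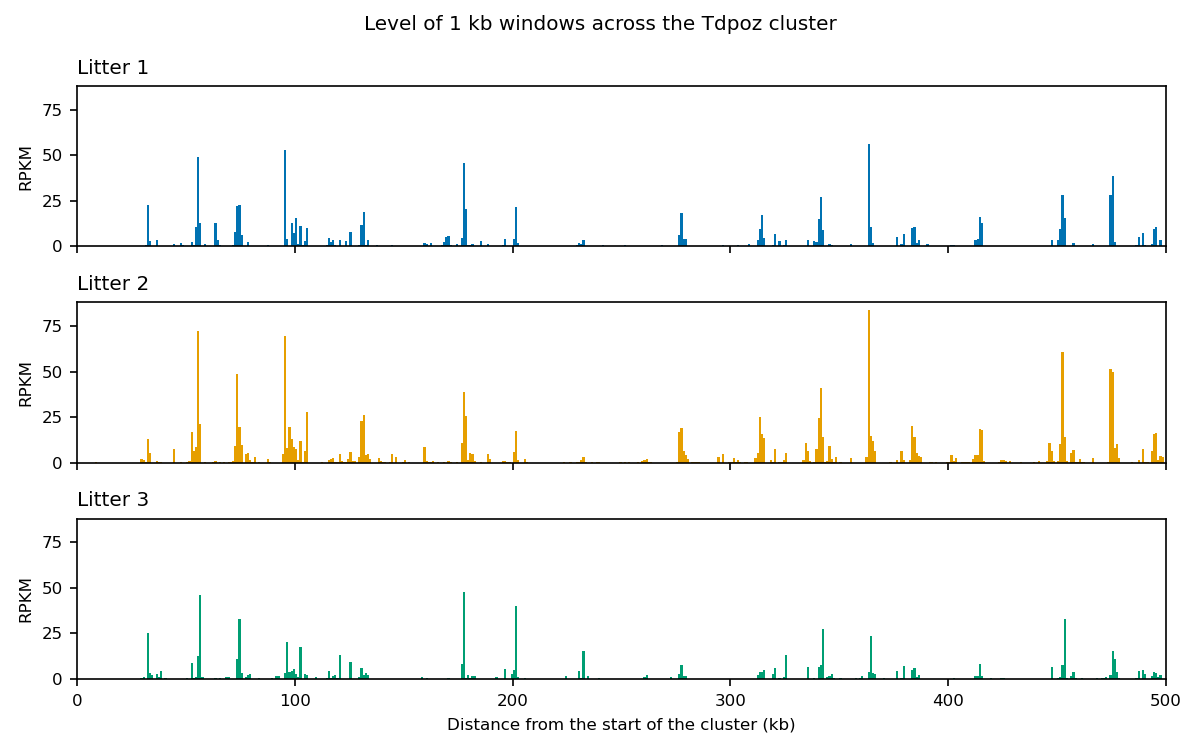
Level of each 1 kb window (RPKM, vertical axis) against its distance from the start of the cluster in kb, with 1 panel for each litter on a common scale. Signal stands in narrow peaks parted by nearly empty sequence; 76 windows reach 1 RPKM in all litters and 74 in 1 litter alone, and the highest window of litter 2, at 83.7 RPKM, stands at 3.66 in litter 3.

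The window with the highest mean was chr3:93763001-93764000. It held 56.3 RPKM in litter 1, 83.7 in litter 2 and 3.66 in litter 3. Next came chr3:93455001-93456000 with 48.8, 72.3 and 12.4 RPKM. The window chr3:93577001-93578000 was the most even of the 10, at 45.9, 39.0 and 47.7 RPKM. Litter 3 was the lowest in 7 of the 10. It was the highest in the other 3, chr3:93577001-93578000, chr3:93456001-93457000 with 13.0, 21.2 and 46.3 RPKM, and chr3:93601001-93602000 with 21.5, 17.6 and 40.3. The window at 93456001 adjoins the one at 93455001, so litter 3 was low on one side of a boundary and high on the other. The remaining 5 of the 10 all had litter 2 highest. They were chr3:93495001-93496000 (mean 41.8 RPKM), chr3:93875001-93876000 (34.5), chr3:93852001-93853000 (32.2), chr3:93473001-93474000 (27.3) and chr3:93874001-93875000 (27.2).

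Bases covered in all 3 litters fell into 40 blocks, joined over gaps of up to 200 bases and kept where every litter had at least 50 alignments. The blocks are numbered by position. They were 128 to 2740 bases long (median 817.5), took up 8.19% of the cluster, and held 79.1%, 69.2% and 77.8% of its alignments in litters 1 to 3. The longest stretch without an alignment in any litter ran for 13360 bases from 93408996 to 93422355. Between them, the 3 litters covered 34.02% of the bases at least once, and 9.80% were covered in every litter.

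Block 3, chr3:93454874-93456656, held the most alignments, with 2390, 3235 and 2367 in litters 1 to 3, or 42.7 ± 11.9 RPKM (SD, n = 3). Block 16, chr3:93576878-93578181, had the highest level at 47.8 ± 4.78 RPKM, with 52.3, 48.2 and 42.8. It was the most even of the 40 blocks, with a coefficient of variation of 10.002% against a median of 57.6%. Block 37, chr3:93874830-93876553, held 2334, 2932 and 1133 alignments. Block 28, chr3:93763500-93765223, held 2324, 2900 and 1135, and is of the same length, 1724 bases. Block 7, chr3:93495267-93496981, held 1926, 2337 and 962. Blocks 28 and 37 were thus nearly alike in each litter, and block 7 followed the same order of litters.

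Litter 2 was also the highest in 3 shorter blocks. Block 4, chr3:93473253-93474085, had 30.5, 68.4 and 13.6 RPKM in litters 1 to 3. Block 25, chr3:93740605-93741508, had 28.2, 66.6 and 9.89, and block 34, chr3:93851953-93852856, had 28.9, 67.5 and 9.78. The last 2 of the 10 blocks with the most alignments were block 18, chr3:93600322-93601970, at 15.6, 14.3 and 27.4 RPKM, and block 14, chr3:93529874-93532004, at 14.7, 24.2 and 4.42. Block 18 was highest in litter 3 and block 14 lowest in it.

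Much of the cluster repeated itself, start by start. Where a read that fits several copies is placed at each of them, the copies show the same number of alignments at matching positions in every litter. Single positions had few alignments, 1.97, 1.96 and 1.97 per used start on average in litters 1 to 3. No position had at least 10 in every litter, the minimum set for this comparison. Of 134 positions with at least 3 in every litter, 89 recurred, against 2 of 9 with at least 5. Small counts can be equal at unrelated positions, and the share expected without copies was not computed. Without litter 3, 100 positions recurred at the minimum of 10. Stretches of 40 bases with at least 8 used starts were then compared, and called repeated where another place held the same counts in all 3 litters at every base, in either orientation. Of 36020 stretches in the cluster, 19060 (52.9%) were repeated elsewhere in it. No such share was computed for stretches outside the cluster. The repeated stretches held 49.2%, 53.5% and 54.5% of the cluster's alignments in litters 1 to 3. Stretches were called in all 3 litters at once, so the 3 shares rest on the same positions. With each repeated position counted a single time, 69.2% ± 2.26 of alignments remained, and the level was 1.504 ± 0.550 RPKM (SD, n = 3) instead of 2.17 ± 0.783. The fold over the rest of chromosome 3, whose own repeats were left in, was then 6.43.

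The sets of matching positions were small. Of 27872 distinct sets, 18227 held 1 position, 6299 held 2, 2297 held 3 and 1049 held 4 or more, up to 6. Blocks were put in one family where at least 50% of the alignments of either lay at positions repeated in the other. This gave 9 families of 2 or more blocks, with 26 blocks in all, and 14 blocks stood alone.

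The family with the most blocks was made of very short ones. Blocks 15, 20, 21, 31, 32 and 40 were 128 to 131 bases long. Blocks 15, 31 and 40, at chr3:93533527-93533657, chr3:93786626-93786756 and chr3:93897398-93897528, held 123, 79 and 81 alignments in litters 1 to 3, the same in all 3 blocks. They were equal at 61 of 61 used positions. Blocks 21 and 32 were higher in litter 2, at 138 and 130 alignments. These short blocks were also repeated outside the cluster, for 97.7% to 100% of their alignments.

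A second family joined blocks 13, 23, 29 and 38, 521 to 571 bases long. Litter 2 was lowest in all 4, at 2.92, 3.20, 2.92 and 3.00 RPKM, against 13.0, 13.9, 13.9 and 13.7 in litter 1 and 16.2, 17.4, 14.5 and 15.04 in litter 3. Blocks 13 and 23 lay in opposite orientation and were equal at 289 of 290 used positions. The 4 blocks have many start counts in common, so their levels are not independent observations.

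Blocks 26 and 35, chr3:93741827-93742533 and chr3:93853175-93853881, were equal at all 575 used positions, at 348, 375 and 1335 alignments in litters 1 to 3. Block 5, chr3:93474531-93475237, joined them with 366, 350 and 1443 alignments and equal counts at 82.0% of used positions. All 3 were 707 bases long and highest in litter 3. The pairs 25 and 34, 26 and 35, 27 and 36, and 28 and 37 lay in the same order and orientation, 111348, 111348, 111342 and 111330 bases apart. They were equal at 94.2%, 100%, 97.5% and 91.8% of used positions. Blocks 29 to 31 recur as 38 to 40, 110772 bases on. Blocks 12 to 15 recur in opposite orientation as blocks 21 to 24, with equal counts at 95.2% of used positions for blocks 14 and 22. Matching alignments one to one, so that each is used a single time, paired 98.7% of block 28 with block 37 and 69.2% of block 7 with block 28. Block 7 was equal to block 28 at 44.6% of used positions only. No value for unrelated blocks of like depth was computed beside these shares.

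**Figure D2:**
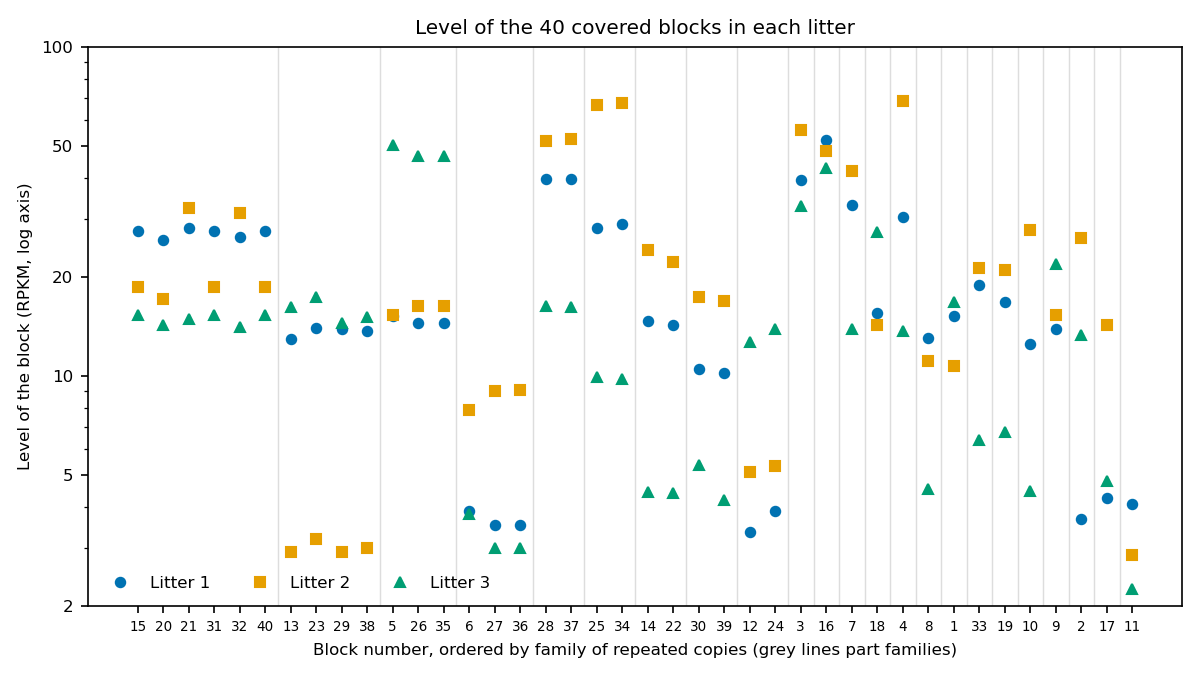
Level of each of the 40 covered blocks (RPKM, log axis) in litters 1 to 3, with blocks ordered by family of repeated copies and grey lines between families. Blocks 26 and 35 sit at the same 3 levels, 14.5, 16.4 and 46.7 RPKM, whereas in the family of short blocks litter 2 stands at 32.5 and 31.3 RPKM in blocks 21 and 32 and at 17.1 to 18.6 in the other 4.

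Copies also lay beyond the cluster. In all, 20.2% of the stretches were repeated elsewhere on chromosome 3 and 2.53% on other chromosomes or contigs, and 59.4% were repeated somewhere. For these shares too, no value for stretches outside the cluster was computed. Among 10 kb bins, the most matches outside lay at chr3:93970001-93980000 (1927 stretches) and chr3:94000001-94010000 (1813), just past the cluster, where the level stayed high. More distant bins on the chromosome began at 78860001 (336), 92870001 (319) and 25050001 (209). On other chromosomes the most matches, 163, lay in the bin of the Y chromosome that begins at 2550001. Block 33, chr3:93814004-93815543, had 94.6% of its alignments at positions repeated outside the cluster, and block 14 had 61.8%. Blocks 4, 5, 25, 26, 34 and 35 were among those with 0% there, so by this measure their repeats lay within the cluster.

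The litters also differed in where along a block alignments began. In block 28, 91.9% of alignments in litter 1 (95% Wilson interval 90.7% to 93.0%) and 91.2% in litter 2 (90.1% to 92.2%) began before the block's midpoint, counted from the lower coordinate. In litter 3 it was 25.99% (23.5% to 28.6%). Block 37 had 91.9%, 91.3% and 25.9%. Block 7, which has fewer equal positions with them, had 93.4%, 90.8% and 25.4%. Block 3 had 72.6%, 75.8% and 12.7%. Litters 1 and 2 lay close together in these 4 blocks, and litter 3 lay far below both.

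In block 16 litter 3 was the highest, with 19.4%, 30.3% and 79.8% in litters 1 to 3. Its match to block 3 is in opposite orientation, with equal counts at 48.9% of used positions, so that its lower coordinates correspond to higher ones in block 3. Its total, by contrast, was the most even of all blocks. Other inverted pairs were set side by side in the same way. Block 14 had 40.04%, 47.8% and 72.7%, and its inverted copy, block 22, had 61.8%, 51.3% and 28.6%. Block 33 had 24.9%, 32.3% and 70.0%, and block 19, its inverted partner, had 72.3%, 60.9% and 50.1%. In both pairs the order of the litters was reversed between the partners. It was also reversed in blocks 12 and 24, with 63.3%, 50% and 36.1% in the former and 65.4%, 67.8% and 73.7% in the latter. It was not reversed in blocks 13 and 23, with 74.2%, 77.8% and 55.3% in the former and 51.0%, 57.4% and 59.3% in the latter. Blocks 1 and 18 did not reverse it either, with 83.3%, 67.9% and 73.4% against 18.3%, 28.7% and 31.5%. Blocks 30 (45.8%, 56.8% and 45.2%) and 39 (49.7%, 57.9% and 53.2%), inverted to block 22, did not reverse its order. Nor was the full order reversed between block 23 and blocks 29 and 38, or between blocks 3 and 16. Partners with equal counts share alignments, so a reversal in them is not a separate observation.

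**Figure D3:**
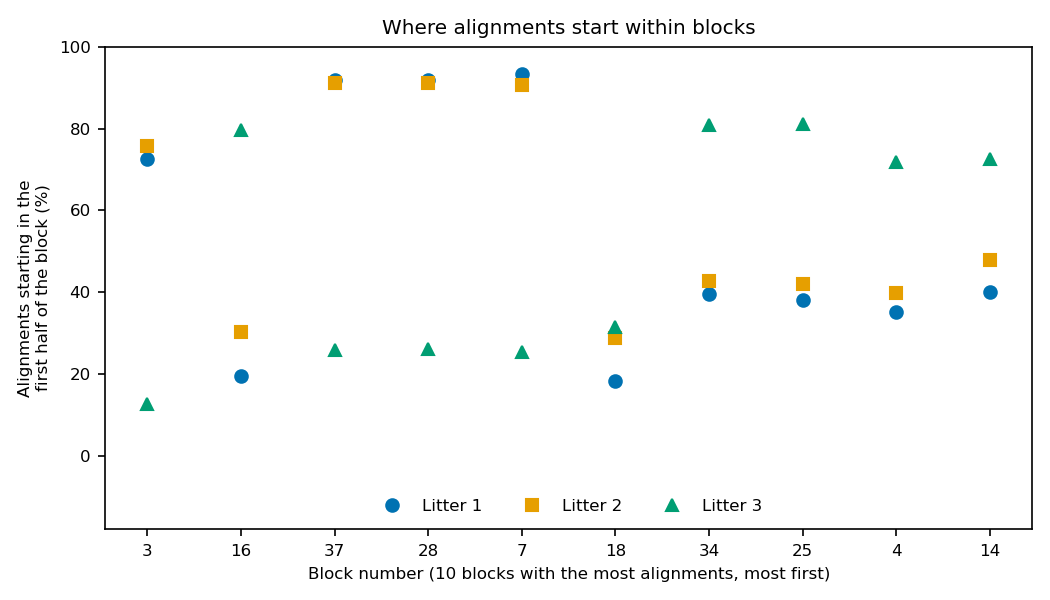
Percent of a block's alignments that begin before its midpoint, by lower coordinate, for the 10 blocks with the most alignments (most at the left) in litters 1 to 3. In 9 of these 10 blocks litter 3 stands apart from the other two litters, while in block 18 it lies at 31.5% beside 18.3% and 28.7%.

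Across the 33 blocks of at least 500 bases, litter 3 lay more than 20 percentage points outside the range of the other litters in 15. Litter 2 did so in 6 and litter 1 in 1. Blocks of a family count more than once here. No block outside the cluster was split in this way, so how common such differences are elsewhere is not known. The length of 500 bases and the 20 points were chosen after the values had been seen.

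A like contrast held between blocks side by side. Blocks 4 and 5 are 445 bases apart, and the ratios of their alignments in litters 1 to 3 were 2.36, 5.28 and 0.319. For blocks 25 and 26, 318 bases apart, the ratios were 2.49, 5.21 and 0.271, and for blocks 34 and 35 they were 2.55, 5.27 and 0.268. Neighbouring windows show how common this is elsewhere. Among 36 pairs of adjoining cluster windows at 1 RPKM or more in all litters, 10 pairs (27.8%) had litter 3 lowest in one window and highest in the other. The share was 17.8% of 499 such pairs on the rest of chromosome 3 and 16.2% of 11493 pairs over all nuclear sequence. Cluster windows include copies of each other, and the difference between these shares was not tested.

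**Figure D4:**
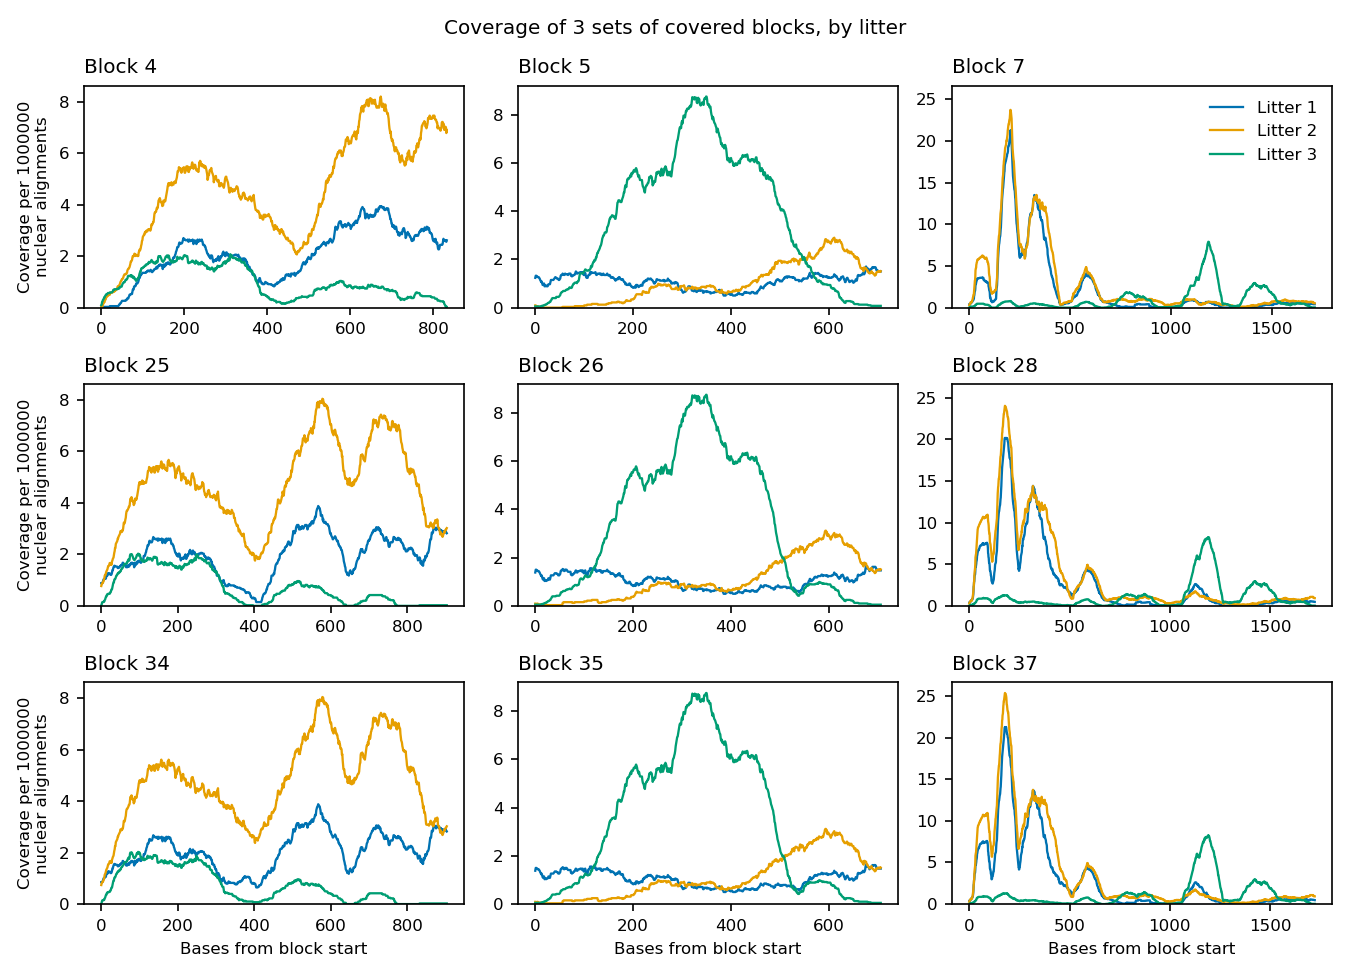
Coverage per 1000000 nuclear alignments against bases from the start of the block, for blocks 4, 5 and 7 (top), 25, 26 and 28 (middle) and 34, 35 and 37 (bottom), with a line for each litter and a common vertical scale in each column. Each column repeats the same shapes; litter 3 is lowest over most of the left blocks, highest in the middle ones, and stands in the later part of the right ones where litters 1 and 2 stand in the earlier part.

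Over all 40 blocks, litter 2 had the highest level in 21, litter 3 in 12 and litter 1 in 7, and litter 3 had the lowest in 26. The highest litter exceeded the lowest by over 2 fold in 30 blocks. Among the 76 windows at 1 RPKM or more in all litters, 49 were highest in litter 2, 19 in litter 3 and 8 in litter 1. Between litters 1 and 2, 24 of these 76 windows differed by over 2 fold, between litters 1 and 3, 37, and between litters 2 and 3, 54. Across all 500 windows the Pearson correlation of log2 level was 0.788 between litters 1 and 2, 0.783 between 1 and 3, and 0.730 between 2 and 3. Over the 76 windows alone it was 0.754, 0.441 and 0.316 in the same order. These counts and correlations were not computed for windows or blocks outside the cluster. The counts also carry the difference in the cluster's total, 3.03 RPKM in litter 2 against 1.499 in litter 3, since levels were not scaled to that total. Windows are not independent and include copies of each other, so no p-value is given.

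Across classes of mean alignments, the spread between litters did not fall in the cluster as it did elsewhere, though the cluster's highest class held 7 windows only. In the 81 windows that averaged 100 alignments or more, the coefficient of variation, less counting variance, had a median of 61.7%, against 62.2% in 1812 such windows on the rest of chromosome 3. The cluster's value was 33.9% without litter 3, 51.5% without litter 2 and 70.2% without litter 1. Between 100 and 300 alignments it was 58.8% in the cluster and 85.6% on the rest of the chromosome. Between 300 and 1000 it was 61.7% and 51.4%. In the 7 cluster windows that averaged 1000 or more it was 67.8%, against 27.8% in 260 windows on the rest of the chromosome and 29.7% in 5244 over all nuclear sequence. This last class has no upper limit, and depths within it were not matched between the sets. These 7 windows include parts of blocks 28 and 37, which are copies, and of block 7, which matches both in part. The windows at 93455001 and 93456001 are parts of block 3, and the one at 93577001 is part of block 16, which matches block 3 in part. They are therefore not 7 separate observations. Over the whole of block 3 the coefficient of variation, counting variance included, was 27.9%. The total of the cluster varied by 36.1%.

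Repeated alignments, which begin where an earlier one of the same litter begins, made up 49.3%, 48.99% and 49.3% of the cluster's alignments in litters 1 to 3. On the rest of chromosome 3 they made up 66.2%, 59.5% and 70.3%. The cluster was thus lower in 3 of 3 litters, and its litters lay close together at their unequal depths. The share depends on depth per position, and its mean was 45.2% when each litter was thinned to the smallest cluster total. That total is the one of litter 3, whose 49.3% thinning leaves in place. At equal depth the other litters thus averaged less than litter 3, and the closeness did not hold. Depth was not matched between the cluster and the rest of chromosome 3.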

How the data were processed

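The deposited values are coverage (signal), unscaled whole numbers of reads lying on a base, in the authors' bedGraph tracks; per the file headers these came from alignment files in sorted order. Reads were mapped by the authors against mm9 using Bowtie (named in the submitters' processing notes). The sources used here give neither its version nor its treatment of reads that fit several places, and strand is not recorded.

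Alignment starts were recovered by undoing 72-base runs, with 0 negative starts on every nuclear chromosome. On simulated data 100% of 50000 alignments and of 503 forward and 509 reversed planted stretches were recovered. RPKM is alignments per kb per 1000000 nuclear alignments. Blocks join gaps of up to 200 bases. Copies match at every base of 40 in all 3 litters. The mitochondrial chromosome was left out.

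The planned rule for copies needed 10 alignments per litter at a position, and 0 positions reached it. The rule on stretches of 40 bases, the families, the split of blocks at their midpoint and the neighbouring windows were chosen after seeing the data. The cluster, its limits and the lists were chosen with earlier results of these data known. Windows and blocks named are the 10 highest by mean RPKM and by alignments, with families of copies. Each litter is its own sample in the labels. Values are means with SD over litters, or 95% Wilson intervals. Alternatives are the threshold, window size, gap, minimum count, scaling, distinct starts, counting copies a single time and leaving out each litter. Promoters are RefSeq, GRCm38.p6 (7 windows, with none for Tdpoz2 and Tdpoz3 and 2 for Tdpoz8), and transcripts are GENCODE M21, which was matched to 8 of 8 Tdpoz genes. Sequences were aligned with mafft 7.526 and figures drawn with matplotlib 3.10.9. Tables used pandas 2.3.3 and numpy 2.4.6 under Python 3.11.15, and intervals scipy 1.17.1.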

Additional observations from a re-analysis of the deposited data

How the results depend on the processing

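The fold of the cluster over the rest of chromosome 3 was 9.28, and became 13.3 with distinct start positions, 2.23 over windows with at least 1 alignment and 3.10 on mean log2 values with a pseudocount of 0.1. With one litter left out it ranged from 7.43 to 10.9. The number of blocks rose from 40 to 62 with a minimum of 10 alignments per litter. Recurring single positions numbered 0 at a minimum of 10 alignments in every litter, 2 at a minimum of 5, 89 at 3 and 474 at 2, the last 2 minimums chosen after seeing the data. With one litter left out their number was 0 to 100, with 100 without litter 3, whose highest count at a position was 16. The spread was 33.9% to 70.2% with one litter left out, and lowest without litter 3. The share of repeated alignments was 45.2% after thinning. For these moves the cause was not tested, except that a lower minimum admits more positions and blocks. The count of windows at 1 RPKM, 76, stayed within 1.5 times under every alternative run. Among these, the 110 counted at 500 bases are shorter windows, more of which fit in the cluster, so that count is not a like one. Depth limits single positions, which carry about 1.97 alignments each. No paired analysis was possible because there is 1 group.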
